A study of Mus musculus with 12 samples.

Results

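Nupr1 and 9 other genes of the integrated stress response were followed in the proximal colon of mice lacking the long noncoding RNA EPR. The 10 genes (Nupr1, Aldh1l2, Atf4, Ddit3, Trib3, Chac1, Asns, Psat1, Phgdh and Mthfd2) were taken by symbol from the 55376 genes of the count table. Nupr1 was chosen by its difference in level between EPR cKO and EPR fl/fl in these libraries, and the other members for their place in the pathway with that comparison known, so the difference of its members between the groups is described and not tested. RNA-Seq of total RNA depleted of ribosomal RNA was performed on whole proximal colon tissue of 12 mice aged 12 weeks, with 1 library for each of 6 EPR fl/fl and 6 EPR cKO animals. In both groups the EPR allele is floxed around its promoter and exon 1. EPR cKO mice also bear a Cre transgene driven by the human CDX2 promoter, which is active in the epithelium of distal ileum, cecum and colon, and EPR fl/fl mice without Cre were the controls. The libraries also contain cells outside the epithelium, such as those of the muscle layers, stroma and fat, in which Cre activity was not examined.

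The integrated stress response is a common route by which cells react to amino acid shortage, unfolded proteins, mitochondrial faults, viral RNA or lack of heme. A set of kinases phosphorylates the translation factor eIF2, general protein synthesis slows, and the mRNA of the transcription factor ATF4 is translated more. ATF4 and its partner CHOP, encoded by Ddit3, then switch on genes for amino acid synthesis, one-carbon metabolism, redox balance and cell death. Nupr1 is one of the targets of ATF4, and encodes a small chromatin-associated protein that was discovered through its induction in the injured pancreas. Because ATF4 is set largely at translation, mRNA counts do not measure its protein.

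Nupr1 is transcribed from the minus strand (chromosome 7, 126623249 to 126625676, mm10), where its 3 merged exon intervals sum to 829 bases. ATF4 reaches many of its targets through a composite C/EBP-ATF response element whose core is TGATGNAA. The core was searched on both strands of promoter windows from RefSeq (GRCm38.p6, the same build), each reaching from 250 bases before to 50 bases after the annotated start. Of the 10 genes, 9 had a window and Aldh1l2 had none, and 4 held the core. The 4 matches are shown because they distinguish Nupr1, Chac1, Asns and Trib3 from the other members searched, and are written 5′ to 3′ on the strand of the gene with the core or its reverse complement in capitals.
Nupr1: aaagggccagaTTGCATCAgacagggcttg
Chac1: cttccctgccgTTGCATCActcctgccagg
Asns: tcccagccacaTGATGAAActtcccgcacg
Trib3: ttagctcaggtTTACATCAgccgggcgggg

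The Nupr1 stretch is chr7:126625562-126625591 on the minus strand, with the motif beginning 110 bases before the RefSeq start (position −110). That position falls inside the outermost exon interval of the count table, whose gene model begins farther upstream than the RefSeq transcript. The Chac1 stretch is chr2:119351038-119351067 on the plus strand with the motif at −193, the Asns stretch chr6:7693214-7693243 on the minus strand at −23, and the Trib3 stretch chr2:152344028-152344057 on the minus strand at 15 bases past the start. The Asns match also lies inside the span of its gene model in the count table. Nupr1 and Chac1 hold the same 8 letters. Atf4, Ddit3, Psat1, Phgdh and Mthfd2 held no match in these windows. The core was present in 3.97% of all 32851 windows, in 4.51% of the 27025 genes searched and in 2.77% of the 11137 tested genes with a window. A match describes letters and is not a bound site, and overlap with other motifs was not examined.

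Nupr1 was the member with the widest gap between the groups. In EPR fl/fl its level was 115, 137, 166, 218, 161 and 118 CPM (counts scaled by library size and TMM, the trimmed mean of M values) in replicates 1 to 6, from 1571 to 6725 counts. In EPR cKO it was 19.0, 32.8, 31.9, 34.3, 30.0 and 27.6 CPM, from 346 to 966 counts. Every EPR cKO library lay below every EPR fl/fl library, and the lowest control was 3.34 times the highest EPR cKO value. The mean went from 153 ± 38.5 to 29.3 ± 5.54 CPM (SD, n = 6 each), or 19.2% of the control level, with a log2 fold change of −2.38 (SE 0.18). Counting error was small beside this gap. Before scaling, the lowest control value was 101 CPM (Wilson 95% interval 95.7 to 106, in EPR fl/fl 1) and the highest EPR cKO value 34.7 CPM (32.4 to 37.3), intervals that cover counting error only.

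Nupr1 varied within each group by a similar ratio. The highest EPR fl/fl library, replicate 4, was 1.90 times the lowest, replicate 1, and the highest EPR cKO library, replicate 4, was 1.81 times the lowest, replicate 1. EPR cKO 1 therefore had the lowest Nupr1 level of the 12. It also stood apart in tissue makeup. A tissue composition score, the mean log2 CPM of 8 epithelial genes minus that of 8 smooth muscle genes, was −0.007 in EPR cKO 1, between 2.09 and 3.62 in the other EPR cKO libraries, and between 0.976 and 1.72 in EPR fl/fl. Without EPR cKO 1 the Nupr1 log2 fold change was −2.30 (SE 0.16).

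**Figure D1:**
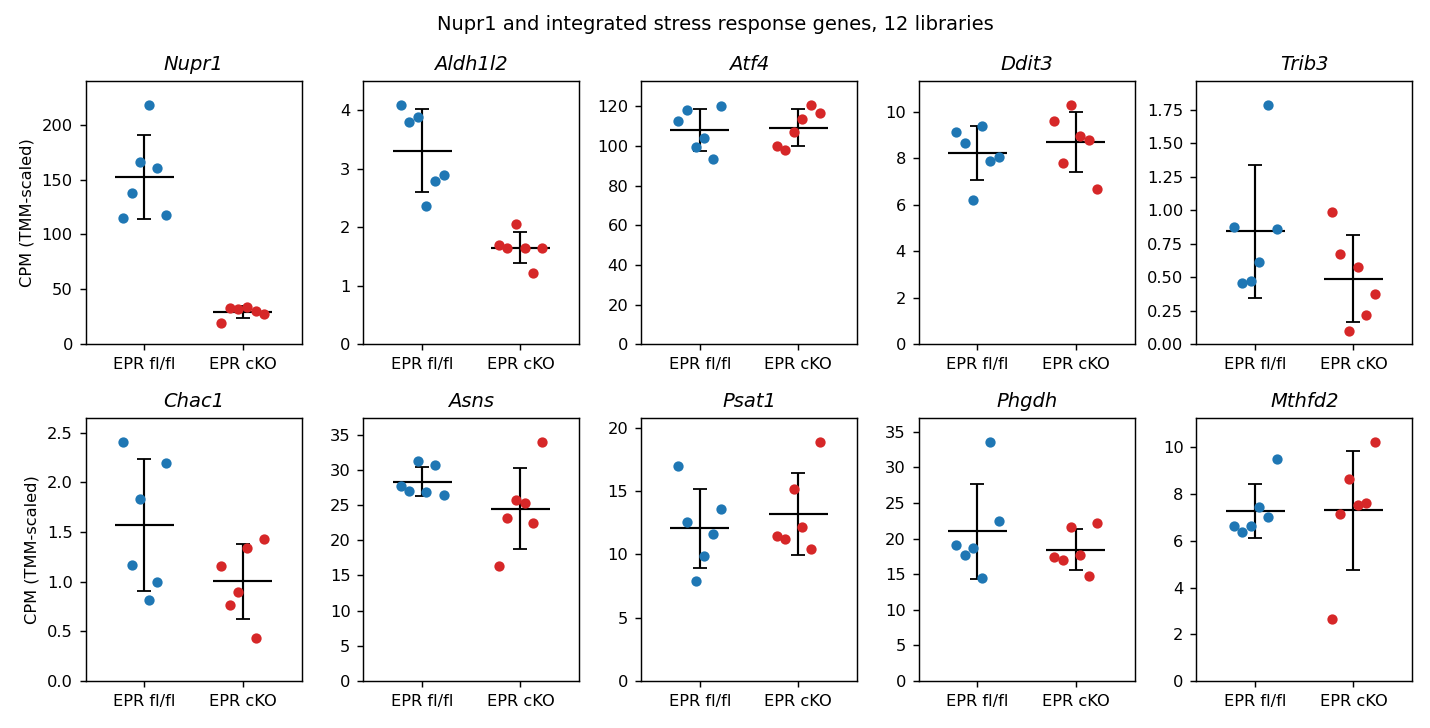
Level of each of the 10 genes in CPM (vertical axes from 0) in the 6 EPR fl/fl (blue) and 6 EPR cKO (red) libraries, drawn in replicate order, with the group mean (long bar) and SD (whiskers). The groups do not overlap for Nupr1 and Aldh1l2, overlap for the other 8, and EPR cKO 1 lies at 2.64 CPM for Mthfd2.

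Aldh1l2, a mitochondrial enzyme that oxidises 10-formyl-tetrahydrofolate and yields NADPH, was the other member whose groups did not overlap. Its level ran from 2.37 to 4.09 CPM in EPR fl/fl (median 3.34) and from 1.21 to 2.05 CPM in EPR cKO (median 1.65). The gap was narrow, since the lowest control was 1.16 times the highest EPR cKO library, and it rested on 39 to 123 against 31 to 41 counts. Means were 3.30 ± 0.708 and 1.65 ± 0.266 CPM (log2 fold change −1.0, SE 0.18). An antisense gene, D10Wsu102e, covers 17.3% of the Aldh1l2 exon bases (chromosome 10, 83487450 to 83534140, minus strand), and whether the counting used the strand is not stated, so that reads of the pair may not be told apart.

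The levels of the pathway's transcription factors overlapped between the groups. Atf4 (chromosome 15, 80255184 to 80257541) ran from 93.7 to 120 CPM in EPR fl/fl (median 108) and from 98.0 to 121 CPM in EPR cKO (median 110). Both groups covered nearly the same range, with a log2 fold change of 0.02 (SE 0.08), which turned to −0.01 with total counts and −0.08 with the tissue composition covariate, and means of 108 ± 10.7 and 109 ± 9.16 CPM. Ddit3, which encodes the proapoptotic factor CHOP, ran from 6.20 to 9.40 CPM in EPR fl/fl and from 6.69 to 10.3 CPM in EPR cKO, a log2 fold change of 0.08 (SE 0.13), or 0.009 without EPR fl/fl 3. Antisense genes cover 9.1% of the Ddit3 exon bases (chromosome 10, 127290774 to 127296288), with the same uncertainty.

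Trib3 and Chac1, targets of ATF4 and CHOP, were scarce in this tissue. Trib3, a pseudokinase that feeds back on the pathway, had 12 to 25 counts in EPR fl/fl and 2 to 18 in EPR cKO, and reached 1 CPM in 1 library only, so it did not pass the filter of 1 CPM in at least 4 libraries. Controls averaged 0.844 ± 0.497 CPM against 0.489 ± 0.326 CPM in EPR cKO, and a fit without the filter gave a log2 fold change of −0.77 (SE 0.46). The groups overlapped widely. Chac1, which degrades glutathione, ran from 0.811 to 2.41 CPM (median 1.5) in EPR fl/fl and from 0.435 to 1.43 CPM (median 1.03) in EPR cKO, a log2 fold change of −0.65 (SE 0.34) on 14 to 58 against 14 to 30 counts. The SE of Chac1 was the widest of the 9 members that passed the filter.

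The enzymes of amino acid and one-carbon synthesis overlapped between the groups. Asns, asparagine synthetase, ran from 26.4 to 31.2 CPM in EPR fl/fl and from 16.3 to 34.0 CPM in EPR cKO, with EPR cKO 1 lowest and EPR cKO 6 highest of the 12. Its log2 fold change was −0.21 (SE 0.14). Phgdh, the enzyme that opens serine synthesis, ran from 14.5 to 33.6 CPM and from 14.7 to 22.2 CPM (log2 fold change −0.18, SE 0.18, and −0.005 without EPR fl/fl 5, the highest library). Of the 50-base stretches of its transcripts, 47.8% also occur in other gene models, among them Gm7901 and Gm9347, so that its counts depend on how reads with several alignments were treated. Psat1, the aminotransferase of the same route, ran from 7.90 to 16.9 CPM and from 10.4 to 18.9 CPM (log2 fold change 0.13, SE 0.19). It was at 0.003 without EPR cKO 6, its highest library, and at 0.02 with the tissue composition score as a covariate.

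Mthfd2, the mitochondrial enzyme that prepares formyl groups for purine synthesis, had the same mean in both groups but not the same spread. EPR fl/fl averaged 7.27 ± 1.15 CPM and EPR cKO 7.31 ± 2.55 CPM, a log2 fold change of 0.01 (SE 0.24). EPR cKO 1 was at 2.64 CPM, below every other library, and the other EPR cKO libraries lay between 7.15 and 10.2 CPM. Without EPR cKO 1 the log2 fold changes were 0.16 for Mthfd2, −0.14 for Asns, −1.03 for Aldh1l2 and −0.71 for Chac1. With the tissue composition score as a covariate, Mthfd2 was at −0.58 and Asns at −0.46.

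**Figure D2:**
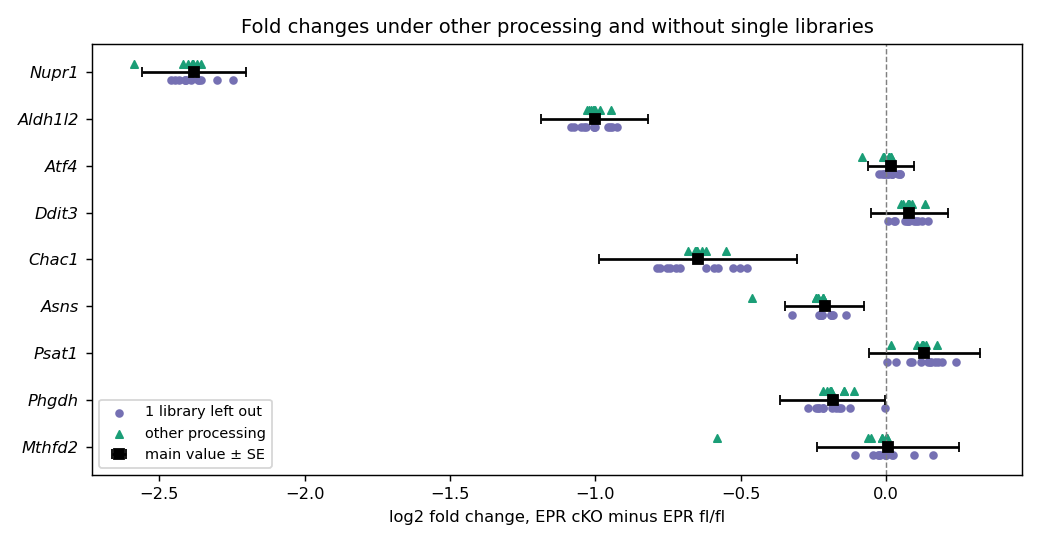
Log2 fold change, EPR cKO minus EPR fl/fl, of the 9 members that passed the filter (horizontal axis), with the value reported and its SE (black), under 8 other ways of processing all 12 libraries (green triangles) and in 12 fits that each left out 1 library (purple). Nupr1 stayed between −2.59 and −2.25 and Aldh1l2 between −1.08 and −0.92, and Mthfd2 ran from −0.58 to 0.16.

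Of the 9 members that passed the filter, 2 (Nupr1 and Aldh1l2) had an adjusted p under 0.05 and a lower level in EPR cKO, and 0 a higher level, by edgeR's quasi-likelihood test over all genes. With the tissue composition score as a covariate, Aldh1l2 was no longer called (log2 fold change −0.95, adjusted p = 0.051). Of all 15952 tested genes, 1.57% were called lower and 0.884% higher. For the same 2 members all EPR cKO libraries lay below all controls, a pattern of 1.47% of tested genes. At the stricter thresholds of the study (an adjusted p under 0.001 with a fold limit), Nupr1 was the 1 member called, with 0.169% of all tested genes called lower. The median log2 fold change of the 9 was −0.18, and that of all tested genes 0.02. Since the list was drawn from this contrast, the calls and adjusted p-values of members are a description and no test. Nothing is read from these shares.

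The order of the members was compared per kilobase of exon, since CPM grows with transcript length. In EPR fl/fl, Nupr1 had the top level of the 10, at 184 ± 46.4 CPM per kilobase, followed by Atf4 at 62.7 ± 6.19. In EPR cKO, Atf4 came at the top with 63.4 ± 5.31 CPM per kilobase and Nupr1 second with 35.3 ± 6.68. Their ranges did not overlap in either group. Asns, Phgdh and Ddit3 followed in EPR fl/fl at 13.1 ± 0.969, 11.1 ± 3.53 and 9.23 ± 1.30 CPM per kilobase. The range of Phgdh overlapped those of Asns and Ddit3, which did not overlap each other. Psat1 (4.11 ± 1.06) and Mthfd2 (3.49 ± 0.552) came next, below Ddit3 in every library, and overlapped. Chac1, Aldh1l2 and Trib3 were at 0.959 ± 0.408, 0.542 ± 0.116 and 0.417 ± 0.245 CPM per kilobase, with overlapping ranges. The order in EPR cKO from the third place down was Asns (11.3 ± 2.66), Ddit3 (9.76 ± 1.45), Phgdh (9.74 ± 1.54), Psat1 (4.50 ± 1.11), Mthfd2 (3.50 ± 1.22), Chac1 (0.613 ± 0.230), Aldh1l2 (0.271 ± 0.0436) and Trib3 (0.241 ± 0.161).

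**Figure D3:**
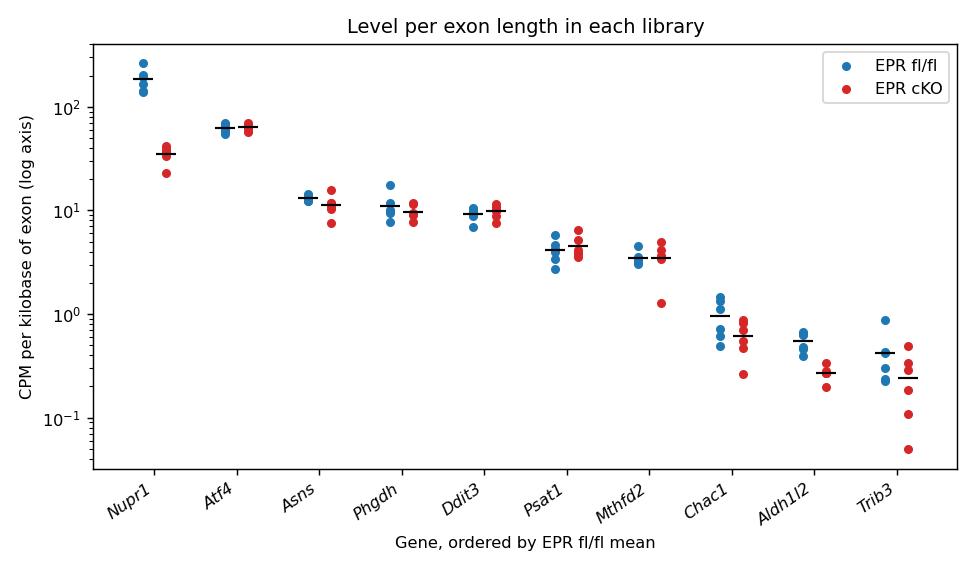
CPM per kilobase of exon (log axis) of the 10 genes in each EPR fl/fl (blue) and EPR cKO (red) library, ordered by the EPR fl/fl mean, with group means as bars. Nupr1 is above Atf4 in EPR fl/fl (184 against 62.7) and below it in EPR cKO (35.3 against 63.4).

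Whether the members rise and fall together was asked from the deviations of log2 CPM from the group means, which do not use the difference between the groups. Over the 12 libraries, Nupr1 correlated with Mthfd2 at r = 0.49 (rho 0.20) and with Asns at r = 0.44 (rho 0.34), and with Chac1 at r = −0.54 (rho −0.40) and Psat1 at r = −0.41 (rho −0.48). Atf4 (r = −0.24), Aldh1l2 (−0.36), Phgdh (−0.17) and Ddit3 (−0.09) were nearer to 0. For Atf4 the value depended on the processing and on 1 library, with r = 0.23 under scaling by total counts, −0.76 with the tissue composition score taken out and −0.59 without EPR cKO 1. None of the 8 relations passed a permutation test with Benjamini-Hochberg adjustment (smallest adjusted p = 0.42 for r and 0.589 for rho). The unadjusted permutation p was 0.0924 for Chac1, 0.133 for Mthfd2 and 0.184 for Asns (n = 12).

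The positive relations rested on EPR cKO 1. Without EPR cKO 1 and EPR fl/fl 1, the libraries farthest from the median of the Nupr1 deviations, r fell to −0.33 for Mthfd2 and −0.07 for Asns, and was −0.45 for Chac1 and −0.52 for Psat1. Within the groups, r of Nupr1 with Mthfd2 was −0.18 among EPR fl/fl and 0.83 among EPR cKO libraries, and with Chac1 −0.80 and −0.22 (n = 6 each, not tested apart). Among all 15951 other tested genes, ranked by r with Nupr1, Mthfd2 was at place 1973, Asns at 2497 and Chac1 at 14668. Of the pairs that leave out Nupr1, Asns and Mthfd2 had the highest r (0.80), as a description. EPR cKO 1 was the lowest library for both genes (16.3 and 2.64 CPM) and EPR cKO 6 the highest (34.0 and 10.2 CPM). The r of this pair without EPR cKO 1 was not examined.

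The deviations were also set beside those of the tissue composition score, a step added after the data were seen. Atf4 had r = 0.61 with the score (permutation p = 0.00625, adjusted p = 0.0563 over 9 relations) and rho = 0.71 (adjusted p = 0.0718), and r was 0.63 without the 2 libraries farthest from the median, EPR cKO 1 and EPR cKO 5. Mthfd2 had r = 0.83 (adjusted p = 0.283) and Asns r = 0.71 (adjusted p = 0.307), with rho of 0.45 and 0.13. Without EPR cKO 1 these fell to 0.12 and 0.15. For Nupr1, r was 0.48 (rho 0.12, adjusted p = 0.307) and −0.19 without EPR cKO 1. No relation with the score passed the adjusted threshold.

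In bulk tissue, fewer cells of a type and less RNA per cell cannot be told apart, so marker levels of 11 cell types are given beside Nupr1. All 9 goblet cell markers had lower levels in EPR cKO and 6 passed the adjusted test. Their summed level was 13410 to 28450 CPM in controls against 6167 to 8571 CPM in EPR cKO, 2 ranges that do not overlap. On the log2 scale, Nupr1 relative to the mean of the 9 markers was at −2.29 ± 0.367 among controls against −3.67 ± 0.211 in EPR cKO, a difference of −1.39 with ranges that did not overlap. Relative to the mucin Muc2 alone the difference was −0.26 and the ranges overlapped, and relative to the trefoil factor Tff3 it was −1.82.

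All 6 adipocyte markers also had negative log2 fold changes, with 0 past the adjusted test of edgeR and 5 at an unadjusted p under 0.05. Their summed level ran from 420 to 1369 CPM in controls against 53.8 to 944 CPM in EPR cKO, with no defining marker at 0. EPR cKO 1 had the highest adipocyte sum of its group and the lowest Nupr1 of all libraries. The epithelial sum was 6869 to 10450 CPM against 7971 to 12720 CPM, and the smooth muscle sum 2792 to 4913 CPM against 932 to 8380 CPM, with EPR cKO 1 the highest. All 8 epithelial markers had positive log2 fold changes, with 0 past the adjusted test of edgeR and 4 at an unadjusted p under 0.05. Colonocyte markers, with 6 of 8 at positive log2 fold changes, summed to 7589 to 14920 CPM in controls against 12130 to 22140 CPM in EPR cKO. Markers with negative log2 fold changes were 8 of 8 of smooth muscle, 7 of 7 of macrophages, 6 of 6 of endothelium, 6 of 6 of enteric neurons and glia, 5 of 6 of fibroblasts and 3 of 4 tested of B and plasma cells. In these 7 lists 0 genes passed the adjusted test of edgeR, while at an unadjusted p under 0.05 4 colonocyte genes were higher, and 1 colonocyte and 1 endothelial gene lower. All 7 sums overlapped between the groups. Of all 15952 tested genes, 1136 were lower and 1777 higher at that unadjusted threshold. EPR cKO 1 had the highest EPR cKO sum for macrophages (222 CPM), endothelium (74.5), neurons and glia (87.2) and fibroblasts (2547), and the lowest for B and plasma cells (128.5). Markers of pancreatic acinar cells, in which Nupr1 is known to be induced, were near 0, since 8 of 12 never reached 1 CPM and Amy2a5 was at 0 in every library. Summed acinar levels were 1.43 to 7.88 CPM in controls against 2.14 to 3.98 CPM in EPR cKO. These sums include the transcription factor gene Bhlha15, the only gene of the list to pass the filter, at 1.98 ± 0.717 and 2.51 ± 0.727 CPM. The part of these cell types in the Nupr1 difference was not tested.

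**Figure D4:**
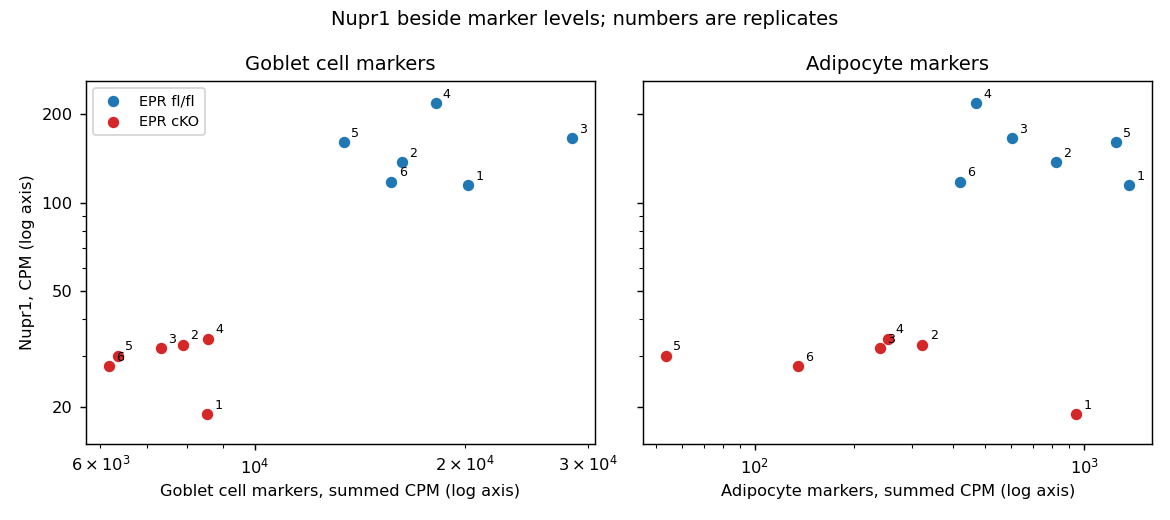
Nupr1 in CPM (vertical, log axis) against the summed CPM (horizontal, log axis) of 9 goblet cell markers (left) and 6 adipocyte markers (right), with EPR fl/fl in blue, EPR cKO in red and replicate numbers beside the points. The groups separate on both axes for goblet markers, while EPR cKO 1 combines the lowest Nupr1 (19.0 CPM) with an adipocyte sum of 944 CPM, inside the EPR fl/fl range.

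The wider pathway was covered by 10 lists with 133 genes outside the members, of which 127 were tested. Of these 127, 5 fell and 4 rose at an adjusted p under 0.05, where 1.57% of all 15952 tested genes were called lower and 0.884% higher. The median log2 fold change of the 127 was 0.06 against 0.02 for all tested genes. At an unadjusted p under 0.05, 11 of the 127 were lower and 16 higher, beside 1136 lower and 1777 higher of all 15952 tested genes. Without EPR cKO 1, 10 of the 127 were lower and 15 higher at an adjusted p under 0.05, where 14.4% and 7.44% of all genes were called. Without EPR fl/fl 5, EPR cKO 2, EPR cKO 3 or EPR cKO 5 0 pathway genes were called lower by edgeR. Without EPR fl/fl 6, 4 were called lower, and leaving out any of the remaining 6 libraries left 1 or 2. In the other direction, 1 gene was called higher in each fit but those without EPR cKO 1 (15) and without EPR fl/fl 6 (4).

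Upstream of Atf4, the kinases, eIF2 and eIF2B subunits and their regulators held 1 gene that passed. Of 17 tested, 0 fell and 1 rose, Oma1, the mitochondrial protease that relays mitochondrial stress to the pathway (48.8 ± 3.40 to 61.7 ± 6.66 CPM, log2 fold change 0.34, SE 0.08, adjusted p = 0.0376). Of 7 bZIP partners of ATF4 and CHOP, 1 rose, Nfe2l2, which encodes the antioxidant factor NRF2. It ran from 179 to 212 CPM in EPR fl/fl and from 219 to 273 CPM in EPR cKO, without overlap (log2 fold change 0.31, SE 0.07, adjusted p = 0.0341). The groups did not overlap for Oma1 either. Of the 127 tested pathway genes, 3 had all EPR cKO libraries above all controls, a pattern of 1% of all tested genes. Atf3, named after its values were seen, was at 38.0 ± 19.0 and 65.7 ± 19.1 CPM with overlapping groups (log2 fold change 0.79, SE 0.29, adjusted p = 0.186).

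Among 13 tested targets of ATF4 and CHOP outside the members, 1 rose and 1 fell. Tnfrsf10b, the death receptor induced by CHOP, ran from 4.53 to 6.55 CPM in EPR fl/fl and from 7.47 to 10.4 CPM in EPR cKO. All 6 EPR cKO libraries were above all controls, as for 1% of all tested genes (log2 fold change 0.69, SE 0.12, adjusted p = 0.00921). Gpt2, the mitochondrial alanine aminotransferase, ran from 31.2 to 44.6 CPM and from 19.5 to 34.6 CPM (log2 fold change −0.59, SE 0.13, adjusted p = 0.0292). Nupr1l, the paralog of Nupr1, was under the filter at 0.726 ± 0.289 and 0.542 ± 0.146 CPM, as were Fgf21 and Ankrd1.

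The amino acid and folate lists held the other genes that passed. Of 11 amino acid transporters, Slc1a5, which carries glutamine, fell from 131 ± 19.9 to 90.7 ± 11.1 CPM (log2 fold change −0.53, SE 0.11, adjusted p = 0.0276). Of 12 genes of serine, glycine and proline synthesis, 2 fell. They were Pycr1, the last step of proline synthesis (5.22 ± 1.17 to 2.79 ± 0.669 CPM, log2 fold change −0.90, SE 0.21, adjusted p = 0.0381), and Glul, glutamine synthetase (232 ± 42.8 to 157 ± 26.4 CPM, log2 fold change −0.56, SE 0.13, adjusted p = 0.0445).

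Of 13 folate enzymes, 1 fell and 1 rose. Aldh1l1, the cytosolic counterpart of Aldh1l2, fell from 35.7 ± 6.84 to 20.9 ± 5.71 CPM (log2 fold change −0.77, SE 0.18, adjusted p = 0.0364). Atic, the last enzyme on the way to inosine monophosphate in purine synthesis, rose from 48.1 ± 4.04 to 67.0 ± 11.5 CPM (log2 fold change 0.48, SE 0.11, adjusted p = 0.0406). The groups overlapped for both, and for Gpt2, Slc1a5, Pycr1 and Glul. Tnfrsf10b passed in all 12 fits that left out 1 library, and the other 8 in 2 to 4 of them. With the tissue composition score as a covariate, of the 9 genes called only Pycr1 (log2 fold change −1.27) and Tnfrsf10b (0.59) stayed past the threshold. The others lay at −0.41 for Gpt2, −0.45 for Slc1a5, −0.39 for Glul, −0.58 for Aldh1l1, 0.25 for Oma1, 0.23 for Nfe2l2 and 0.23 for Atic. In that fit 4 further genes fell, where 244 of all 15952 tested genes were called lower and 85 higher. They were the ER stress sensors Ern2 (−0.94, adjusted p = 0.0472) and Eif2ak3 (−0.40, adjusted p = 0.0471), and the ER folding proteins Pdia6 (−0.46, adjusted p = 0.0458) and Calr (−0.58, adjusted p = 0.0493). Without the covariate their adjusted p in edgeR was 0.0866, 0.2115, 0.3772 and 0.4792. Eif2ak3 encodes the eIF2 kinase PERK.

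The remaining lists held no gene past the threshold. Among 17 genes of tRNA charging, the aminoacyl-tRNA synthetases and the tRNA exporter Xpot, log2 fold changes ran from −0.11 (Wars, adjusted p = 0.724) to 0.30 (Hars, adjusted p = 0.0664), with 0 lower and 2 higher at an unadjusted p under 0.05. The 9 mitochondrial stress proteins ran from 0.01 (the protease subunit Clpx, whose sign depended on the scaling) to 0.45 (the chaperonin Hspe1, adjusted p = 0.24). The 11 autophagy genes ran from −0.16 (Atg10) to 0.14 (Becn1, adjusted p = 0.262). Of 17 genes of the ER chaperone arms, the lowest was Ern2, the stress sensor of mucus-secreting cells (75.5 ± 24.1 and 47.0 ± 8.97 CPM, log2 fold change −0.69, SE 0.19, adjusted p = 0.0866), and the highest the co-chaperone Dnajb9 (0.19). At an unadjusted p under 0.05, 1 gene of the mitochondrial and 1 of the autophagy list were higher, and 1 of the ER list was lower. Of all 15952 tested genes, 1777 were higher and 1136 lower at that threshold. DESeq2 called Hars and Ern2, among 473 genes called lower and 440 higher of 15910. With the tissue composition covariate, Hspe1 was at 0.05, Becn1 at 0.03, Atg10 at −0.10 and Wars at −0.42, none of them past the threshold. Without EPR cKO 1, Hars (adjusted p = 0.0149), Hspe1 (0.0276), Ern2 (0.0284) and Becn1 (0.0315) passed in edgeR, where 14.4% of all genes were called lower and 7.44% higher.

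**Figure D5:**
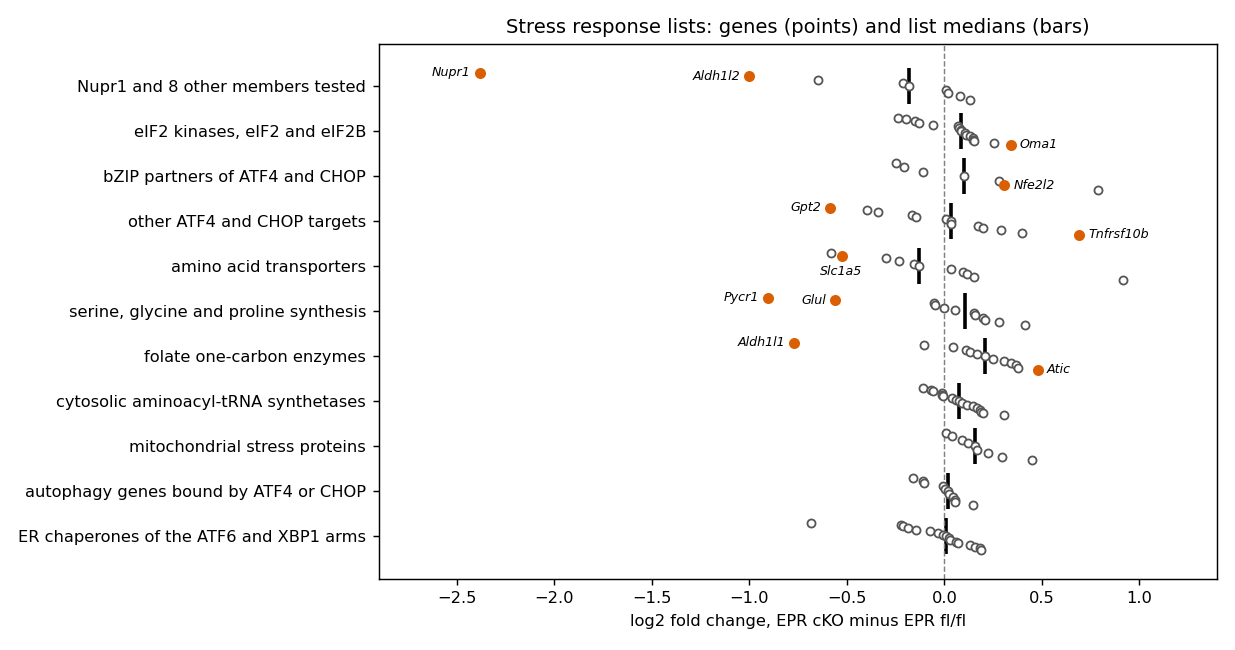
Log2 fold change, EPR cKO minus EPR fl/fl (horizontal axis), of each tested gene in the list of members and the 10 pathway lists, with list medians as bars and genes at an adjusted p under 0.05 filled and named. Nupr1 (−2.38) lies apart from every other gene shown, and list medians lie between −0.18 and 0.21.

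The promoter core of the Nupr1 site was also searched in the wider lists. Of 102 pathway genes with a window, 15 held it (14.7%), and 14 of these were tested. Their directions were mixed, with 6 negative log2 fold changes, and 1 gene, Pycr1, was past the adjusted threshold. Among the members that hold it, log2 fold changes were −2.38 (SE 0.18) for Nupr1, −0.65 (SE 0.34) for Chac1 and −0.21 (SE 0.14) for Asns. Chac1 and Asns were not past the adjusted threshold, Nupr1 was chosen by this contrast, and Trib3, which also holds the core, was under the filter.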

How the data were processed

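The authors extracted RNA from frozen whole tissue, prepared stranded total RNA libraries after ribosomal depletion, sequenced them on an Illumina NovaSeq, trimmed reads with Trimmomatic, aligned them to mm10 with STAR 2.5.3a (version per the submitters' processing notes) and obtained gene counts with featureCounts from the Ensembl annotation. The deposited values are raw counts per gene, not normalized. The strand setting and the treatment of reads with several alignments are not given in the sources used here. The 12 columns were matched to samples by name, with 0 columns left over, and total counts ran from 13093904 to 33211041. EPR, listed as Smim31, was at 21.2 to 58.0 CPM in EPR fl/fl and 0 to 0.423 CPM in EPR cKO libraries.

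The members, lists and tests were chosen with earlier results of these data known. Genes with at least 1 CPM in at least 4 libraries (15952) were fitted in R 4.3.3 with edgeR 4.0.16 (TMM, quasi-likelihood F test, no covariate, Benjamini-Hochberg adjustment). The SE is the absolute log2 fold change divided by the square root of F. A prior count of 2 was used for log2 CPM per library. Permutation tests were two-sided, with 100000 resamples within the groups for correlations and all 924 assignments for single measures. The smallest chi-square per gene over 30 library pairs of the same group was 24.7, so no library was a repeat. The labels give a group and a replicate number, and the authors describe 6 mice of each genotype and 12 libraries. Named genes were the members, pathway genes past the threshold, the lowest and highest gene of a list with none, and the 5 genes most like Nupr1. Atf3, Eif2ak3, Pdia6, Calr, the untested Nupr1l, Fgf21 and Ankrd1, the genes around Nupr1 and single markers were named outside this rule, after their values were seen. The script was tested on simulated data. Alternatives were DESeq2 size factors, total counts, no filter, filterByExpr, DESeq2 1.42.0, limma-voom (limma 3.58.1), a replicate block, the tissue composition score as a covariate, a prior count of 0.5 and leaving out each library.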

Additional observations from a re-analysis of the deposited data

Results flagged for a closer look

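Among 22 sets of 6 libraries examined, 2 held a library whose gap to the next exceeded Dixon's 95% critical value, where chance gives about 1.1. Trib3 in EPR fl/fl 5 was at 1.79 CPM, with the other controls between 0.454 and 0.876 CPM. Mthfd2 in EPR fl/fl 6 was at 9.49 CPM, with the other controls between 6.38 and 7.46 CPM. The Trib3 value rests on 25 counts.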

How the results depend on the processing

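The log2 fold change of Nupr1 ran from −2.59 (tissue composition covariate) to −2.36 (limma-voom) over 8 alternatives and from −2.46 (without EPR fl/fl 1) to −2.25 (without EPR fl/fl 4) over 12 fits that left out 1 library, and that of Aldh1l2 from −1.03 to −0.95 and from −1.08 to −0.92. With the covariate, 1 member was called lower, since Aldh1l2 no longer passed. Calls of members are a description here too, as the list was drawn from this contrast. All genes called lower numbered 473 with the DESeq2 Wald test and 145 to 2273 when 1 library was left out, and genes called higher 39 with total counts, 54 without a filter, 440 with DESeq2, 85 with the covariate and 31 to 1178 when 1 library was left out. Pathway genes called higher numbered 1 with total counts, without a filter and with the covariate and 1 to 15 when 1 library was left out, and those called lower 0 to 10. The tissue composition score differed by 1.19 (exact permutation p = 0.0671), and by 0.952 to 1.68 when 1 library was left out, past the threshold only without EPR cKO 1 (1.68, exact p = 0.00217). No relation of a member with Nupr1 passed under any of 15 alternatives (smallest adjusted p = 0.146). Deviations of same-numbered libraries had r of −0.24 to 0.34 over 6 numbers, and 4 of 12 libraries matched their own number best. These values carry no test and cannot show whether the numbers mark shared litters, cages or batches. With the replicate block, 178 genes were called lower and 67 higher, 4 pathway genes lower and 1 higher, 2 members lower and 0 higher, and the log2 fold change was −2.37 for Nupr1 and −0.98 for Aldh1l2. Small values changed sign. Atf4 was at −0.0101 with total counts, −0.00674 without a filter, −0.0834 with the covariate and −0.0247 to 0.0493 with 1 library left out, and Mthfd2 ran from −0.581 to 0.00278 over the alternatives and from −0.106 to 0.161 with 1 library left out. Clpx was at −0.0209 with total counts, −0.0106 without a filter and −0.0379 with the covariate, and −0.0248 to 0.0461 with 1 library left out. Sgf29 was at −0.14 with the covariate, and with 1 library left out Cln3 ran from −0.236 to 0.00496, Eif3c from −0.0406 to 0.0389 and 2510046G10Rik from −0.187 to 0.0305. The cause was not tested. Trib3 had too few counts for a tested value.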

Other observations

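The genes around Nupr1 on chromosome 7 were examined after its values were seen. Of the 3 tested genes nearest on each side, 0 passed an adjusted p under 0.05 by edgeR. On the side of lower coordinates, Apobr, 34.1 kb away, was at −0.39 (log2 fold change, SE 0.19, adjusted p = 0.29), Cln3 −0.15 (adjusted p = 0.646) and Eif3c −0.00 (adjusted p = 0.993). On the other side, 2510046G10Rik, 22.9 kb away, was at −0.08 and Sgf29 at 0.16, the last with a sign that depended on the tissue composition covariate. Sult1a1, a sulfotransferase 47.2 kb away, was at 233 ± 45.3 CPM in controls against 128 ± 69.7 CPM in EPR cKO with overlapping groups (log2 fold change −0.86, SE 0.29, adjusted p = 0.148), and passed with DESeq2 (adjusted p = 0.0447) and without EPR cKO 5 (adjusted p = 0.0221).

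The 5 tested genes whose deviations from the group means were most like those of Nupr1 over 12 libraries were Hexdc (r = 0.92), Map2k6 (0.91), 1010001N08Rik (0.90), Tas1r3 (0.90) and Clasrp (0.89). These were the top of 15951 correlations and carry no test. Their log2 fold changes were 0.24, −0.11, −0.19, −0.24 and 0.25, and none of them had an adjusted p under 0.05.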
